A study of Mus musculus with 8 samples.

Results

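N6-methyladenosine (m6A) peaks lying within short exons of coding sequence were examined in mouse embryonic stem cells (ESCs). A short-exon coding peak was a peak made of a single block whose middle base lay in coding sequence more than 200 nt upstream of the stop codon, in an exon shorter than 400 nt of the transcript with the gene's longest coding sequence, on the same strand. The rule took 2594 of the 18895 peaks of the DMSO list, which is 13.7% (95% interval 13.2 to 14.2), and 1551 of the 13001 peaks of the Dox list, which is 11.9% (11.4 to 12.5). It used positions only, and neither the scores nor the overlap of the lists entered it. Together these were 4145 of 31896 peaks.

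The cells were E14 ESCs that carried a doxycycline-inducible transgene of Dux, a transcription factor of the 2-cell embryo, and a tdTomato reporter driven by the MERVL promoter. All groups shared this line. The cells had been given DMSO, the solvent, or doxycycline (Dox) for 24 h, and for each treatment 2 libraries of immunoprecipitated RNA (IP) and 2 of input RNA were made, 8 in all. Poly(A) RNA broken into fragments of about 150 nt was pulled down with an m6A antibody. The deposited files gave 1 peak list per treatment, in which the replicates had already been combined, so no value here has a replicate error and no test between treatments was possible. Whether the replicates were separate cultures was not stated, and in bulk RNA fewer cells of a state and less RNA per cell cannot be told apart. Read depth was not analysed here, and a deeper library gives more peaks at a fixed threshold, so depth and treatment cannot be told apart in the number of peaks. Intervals are 95% intervals of counting error only.

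m6A is placed on mRNA by the METTL3 and METTL14 writer complex at short sequences such as GGAC, which is the core of the motif DRACH. In mammalian mRNA the mark is densest in long internal exons and around the stop codon. Short internal exons make up most of the coding sequence of a typical gene. They are flanked closely by splice junctions, on which exon junction complexes are laid during splicing, and these complexes are known to keep m6A low in their neighbourhood.

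Most of these peaks were small. Their median length was 50 nt in both lists (middle 50% of the peaks 25 to 100 nt), against 150 nt for coding peaks in exons of 400 nt or more, called long-exon peaks below. Peaks of 25 nt, the smallest size in the lists, made up 31.7% (DMSO) and 33.7% (Dox) of the short-exon peaks, against 15.9% and 15.8% of the long-exon peaks. The stop codon was a median of 1075 nt (DMSO) and 962 nt (Dox) away along the coding sequence. The exons had a median length of 167.5 nt (DMSO) and 172 nt (Dox), and the shortest had 20 nt in both. They were internal exons for 96.0% and 95.1% of the peaks. The middle base of a peak in an internal exon lay a median of 48 nt (DMSO) and 49 nt (Dox) from the nearest splice junction.

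The sequences of the best-scoring peaks show how such a peak can sit on its exon. The score of a peak is the value deposited with it, read here as the authors' −log10 p-value. Whether that p-value was adjusted is not stated. The best-scoring peaks were chosen within a list. Where scores of both lists stand side by side, read depth, which was not analysed, and treatment cannot be told apart. The first 3 sequences are the best-scoring short-exon peaks of both lists and also the best-scoring peaks that cover a whole exon, the next 3 the best-scoring ones found in the DMSO list only, and the last 2 are among the best-scoring ones found in the Dox list only. They are given 5′ to 3′ on the strand of the gene from the GRCm38 (mm10) genome. Capitals mark the bases inside the exon, and lower case marks bases of the peak outside it.
Morf4l1, chr9:90097846-90097895, minus strand: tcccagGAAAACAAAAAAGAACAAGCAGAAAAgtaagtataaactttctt
Rbm39, chr2:156177317-156177391, minus strand: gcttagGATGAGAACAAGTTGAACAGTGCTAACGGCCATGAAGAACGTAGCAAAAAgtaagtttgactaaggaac
Rpl13, chr8:123103162-123103361, plus strand: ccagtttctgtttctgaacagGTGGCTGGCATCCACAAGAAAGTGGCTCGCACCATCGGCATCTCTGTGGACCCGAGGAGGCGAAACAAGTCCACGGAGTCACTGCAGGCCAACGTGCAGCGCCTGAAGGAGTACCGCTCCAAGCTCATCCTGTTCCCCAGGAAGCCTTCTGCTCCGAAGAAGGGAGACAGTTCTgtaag
Eef1a1, chr9:78480402-78480426, minus strand: ttgcagATGGGAAAGGGCTCCTTCA
Trip12, chr1:84750432-84750506, minus strand: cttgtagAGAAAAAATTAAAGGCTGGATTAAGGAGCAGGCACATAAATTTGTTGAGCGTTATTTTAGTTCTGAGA
Cfl1, chr19:5493358-5493407, plus strand: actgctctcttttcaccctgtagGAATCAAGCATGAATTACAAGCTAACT
Zmiz1, chr14:25646976-25647025, plus strand: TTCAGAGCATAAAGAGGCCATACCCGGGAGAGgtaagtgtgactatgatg
Sms, chrX:157461216-157461240, minus strand: GCGGCGATGGAGGCATATTGTGTGA

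All of them but that of Sms ran past an edge of the exon. The peak of Morf4l1, a chromodomain protein of histone acetyltransferase and deacetylase complexes, had 50 nt and covered the whole of exon 7 of 13, which has 26 nt, with 6 nt before it and 18 nt after it. Its scores were 295.5 (DMSO) and 162.6 (Dox), the highest of the short-exon peaks in both. The peak of Rbm39, an RNA-binding protein of splicing, covered exon 3 of 17 (50 nt) and scored 154 and 88.5. The peak of Rpl13, a protein of the large ribosomal subunit, covered exon 4 of 6 (174 nt) and scored 132 and 88.7, and it was the only 1 of these 8 with a GGAC. All 3 had the same coordinates in both lists.

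The best-scoring DMSO-only peaks scored far less. They lay in exon 3 of 8 of Eef1a1, which brings aminoacyl-tRNA to the ribosome, at 36.7, in exon 23 of 41 of Trip12, a ubiquitin ligase, at 28.4, and in exon 4 of 6 of Cfl1, the actin-severing cofilin, at 25.03. The Dox-only peaks were weaker again. That of Zmiz1, a transcriptional coregulator, scored 13.9 in exon 11 of 24, and that of Sms, spermine synthase, scored 13.1 in exon 6 of 11. The sequence of the Sms peak also occurs at 3 other loci, so its place is uncertain.

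Running past the exon was common. Of the 2594 DMSO short-exon peaks 843 (32.5%) and of the 1551 Dox ones 489 (31.5%) extended past the exon of the chosen transcript, against 79 of 4423 (1.79%) and 48 of 3642 (1.32%) of the long-exon peaks. The part outside was under 25 nt in 93.6% and 94.5% of them. Of the 843 DMSO peaks, 631 lay inside a longer exon that the annotation gives to a retained-intron transcript, 164 inside an exon of another kind of transcript, and 47 in several exons joined. In the Dox list these numbers were 351, 102 and 36. A single DMSO peak had bases in no annotated exon. At a splice junction 504 DMSO peaks ran past the 3′ edge of the exon, and the exon was followed by GT in 496. Past the 5′ edge ran 426, and the exon was preceded by AG in 425. GT and AG are the first and last bases of most introns. In the Dox list these were 283 of 289 and 245 of 247. The bases were read beside the annotated exon edge, so these counts describe the annotation and not the peaks.

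Among short-exon peaks the highest scores belonged to those that extended past the exon. Of the 142 DMSO short-exon peaks that scored 20 or more, 127 (89.4%, 83.3 to 93.5) extended past the exon, and so did 72 of 79 in the Dox list (91.1%, 82.8 to 95.6). A score of 20 or more was reached by 15.1% (12.8 to 17.6) of the DMSO peaks that extended past the exon and by 0.857% (0.52 to 1.41) of those inside it, and in the Dox list by 14.7% (11.9 to 18.1) and 0.659% (0.32 to 1.35). Among long-exon peaks 18 of 4423 and 21 of 3642 scored as high. Such scores were not particular to short exons. Of the coding peaks that spanned a splice junction, 249 of 3739 (DMSO) and 117 of 2035 (Dox) reached 20. The difference was also seen at a single peak size. Of the DMSO peaks of 25 nt, 14 of 108 that extended past the exon and 3 of 713 inside it scored 20 or more. GGAC was held by 26.8% of the DMSO peaks that scored 20 or more and by 29.1% of those in the Dox list, about the share in all short-exon peaks. Lengths were not matched in this comparison. Peaks that extended past the exon had a median of 75 nt in both lists, against 50 nt for those inside it. The part of intron-containing RNA in these scores was not tested.

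**Figure D1:**
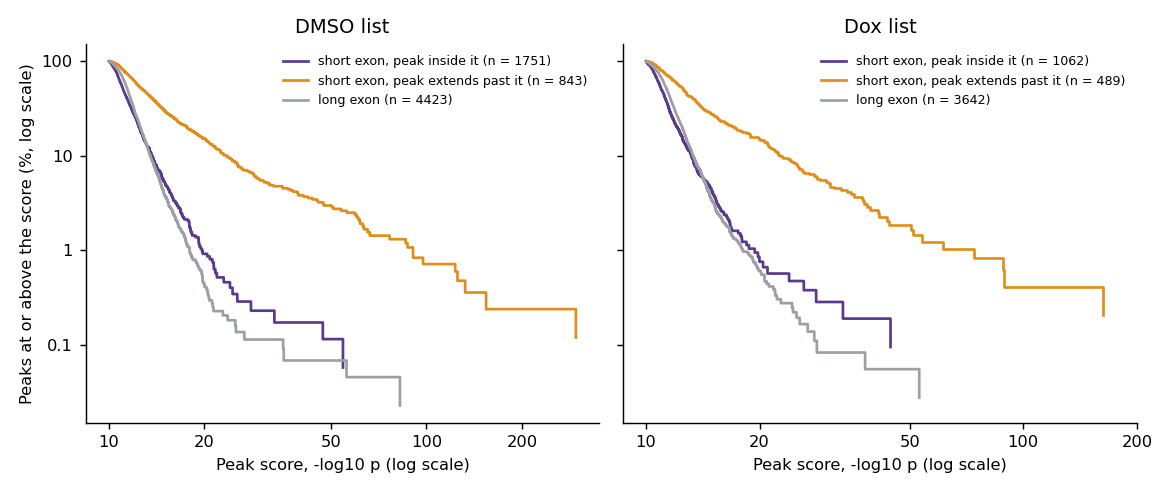
Share of peaks (y axis, %, log scale) at or above each score (x axis, −log10 p, log scale) in the DMSO list (left) and the Dox list (right), for short-exon peaks inside their exon, short-exon peaks that extend past it, and long-exon peaks. The curve of the peaks that extend past the exon lies to the right of the others, with 127 DMSO and 72 Dox peaks at a score of 20 or more against 15 and 7 peaks inside the exon.

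Short exons carried few peaks for their length. In genes with a coding peak of the DMSO list they held 65.3% of the coding sequence but 37.0% of the coding peaks that lay within 1 exon, and for the Dox list 62.0% and 29.9%. There were 44.9 short-exon peaks per 100 kb of coding sequence against 143.7 long-exon peaks among DMSO peaks, a ratio of 0.312 (0.297 to 0.328), and 36.9 against 141.5 among Dox peaks, with a ratio of 0.261 (0.246 to 0.277). Within genes that had both kinds of exon the ratios were 0.249 (0.234 to 0.266) and 0.197 (0.182 to 0.213).

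The density did not change evenly with exon length. In the DMSO list it was 38.4 peaks per 100 kb in exons under 100 nt, 35.8 from 100 nt, 43.3 from 150 nt and 52.6 from 200 nt to under 300 nt. It was 102.8 (91.5 to 115.0) from 300 nt to under 400 nt and 134.1 (122.7 to 146.3) from there to under 600 nt, and lay between 140.8 and 152.4 in longer exons. The Dox list gave 31.4, 28.7, 33.8, 43.3, 95.9 and 128.3 in the same order. For peaks within 1 exon the step thus lay between 200 and 400 nt in both lists. Exons of 300 nt to under 400 nt were closer in this density to long exons than to the shorter ones.

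A part of the deficit came with the rule, since a peak in a short exon that crosses a splice junction has several blocks and was not counted. With these spliced peaks placed by their middle base, the density was 98.5 per 100 kb in short and 164.5 in long exons for the DMSO list, with a ratio of 0.599 (0.577 to 0.622). For the Dox list it was 75.2 against 158, with a ratio of 0.476 (0.454 to 0.498). Short exons stayed below long exons in both lists.

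**Figure D2:**
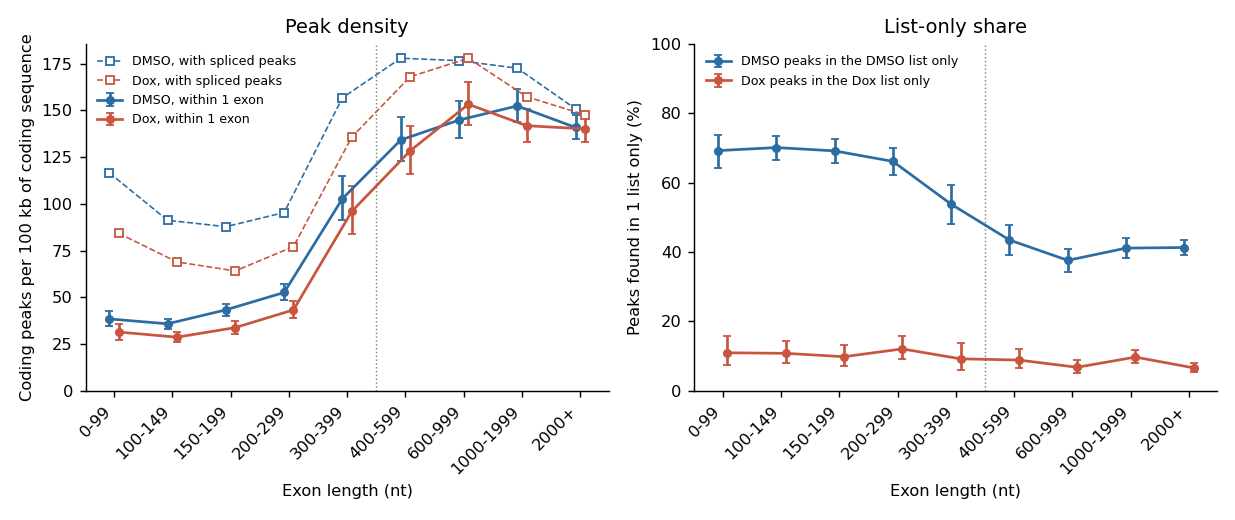
Left, coding peaks per 100 kb of coding sequence (y axis) by exon length (x axis, nt) in the DMSO and Dox lists, for peaks within 1 exon (filled points, with exact Poisson 95% intervals) and with spliced peaks added (open squares). Right, share of the peaks within 1 exon that were found in 1 list only (y axis, %) with Wilson 95% intervals. The dotted line is the 400-nt limit. The density within 1 exon is 35.8 to 52.6 below 300 nt and 134.1 or more above 400 nt in the DMSO list, whose list-only share is highest, 66.1 to 70.1%, below 300 nt.

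The place of the peaks within their exons was compared with the places their lengths allowed. Among the 1670 DMSO peaks inside an internal exon, 34.3% (32.0 to 36.6) had their middle base in the central part when the exon was cut into 5 equal parts, and all possible placements of the same lengths in the same exons gave 34.7%. The part at the 5′ end held 6.95% (5.82 to 8.27) against 7.68% of the placements, and that at the 3′ end held 9.46% (8.15 to 10.96) against 7.81%. In the Dox list, with 1000 such peaks, the 5′, central and 3′ parts held 8.40%, 37.9% (34.9 to 40.9) and 8.70% against 8.12%, 34.5% and 8.24% of the placements. The interval lay above the placements at the 3′ end for DMSO and in the central part for Dox peaks, and included them in the other parts given. Peaks that extended past the exon and spliced peaks were left out of this comparison, and both reach an exon edge. With the extending peaks added, the 5′ and 3′ parts of internal exons held 11.8% and 14.5% (DMSO) and 12.7% and 13.6% (Dox). Placements were not computed for that set, so the comparison covers only peaks inside their exon.

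GGAC was less frequent in short-exon peaks than in long-exon peaks. It was present in 29.7% (28.0 to 31.5) of the DMSO and 27.8% (25.6 to 30.1) of the Dox short-exon peaks, against 61.1% and 62.5% of the long-exon peaks. Short peaks hold fewer motifs by length alone, so peaks of 75 to 150 nt were compared. At that length GGAC was present in 41.1% of the DMSO short-exon peaks and 56.1% of the long-exon peaks, a difference of −15.0 percentage points (−19.1 to −10.9), and in the Dox list in 41.2% and 55.3%, a difference of −14.1 points (−19.0 to −9.02).

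The share was then set beside that of every window of the same length in the same kind of exon of the same genes. Of the 1751 DMSO short-exon peaks inside their exon 28.8% held GGAC, and of the windows 24.9%, an excess of 3.91 percentage points (1.83 to 6.07). The 1062 Dox peaks gave 27.3% against 25.4%, an excess of 1.91 points with an interval of −0.68 to 4.67. Long-exon peaks exceeded their windows by 16.8 (DMSO) and 17.9 (Dox) points. The reversed complement of the motif, GTCC, was below its windows in short-exon peaks, with −2.61 points (DMSO) and −2.90 points (Dox).

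The excess of GGAC went with exon length when the windows were taken from all exons under 400 nt. Windows of each exon class, or of the genes of each subset below, were not counted apart. Differences in GGAC between the sequences of these classes were therefore not removed. From 300 nt to under 400 nt it was 10.3 points (4.53 to 16.1) for DMSO and 7.84 points (1.19 to 14.7) for Dox peaks. From 200 nt to under 300 nt it was 4.01 (−0.01 to 8.30) and 5.03 (−0.07 to 10.6) points. In exons under 200 nt it was 2.02 points (−0.43 to 4.69) for DMSO and −1.91 points (−4.86 to 1.48) for Dox peaks. No excess over these windows was thus detectable there in either list. Among peaks inside their exon, DMSO peaks that overlapped a Dox peak held GGAC in 47.2% of cases. This was 8.87 points (4.13 to 13.7) above windows of their lengths. DMSO-only peaks held it in 23.1%, which was 2.35 points (0.17 to 4.69) above windows of theirs. Dox peaks that overlapped a DMSO peak held GGAC in 29.3% of cases, 2.35 points (−0.50 to 5.37) above windows of their lengths.

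**Figure D3:**
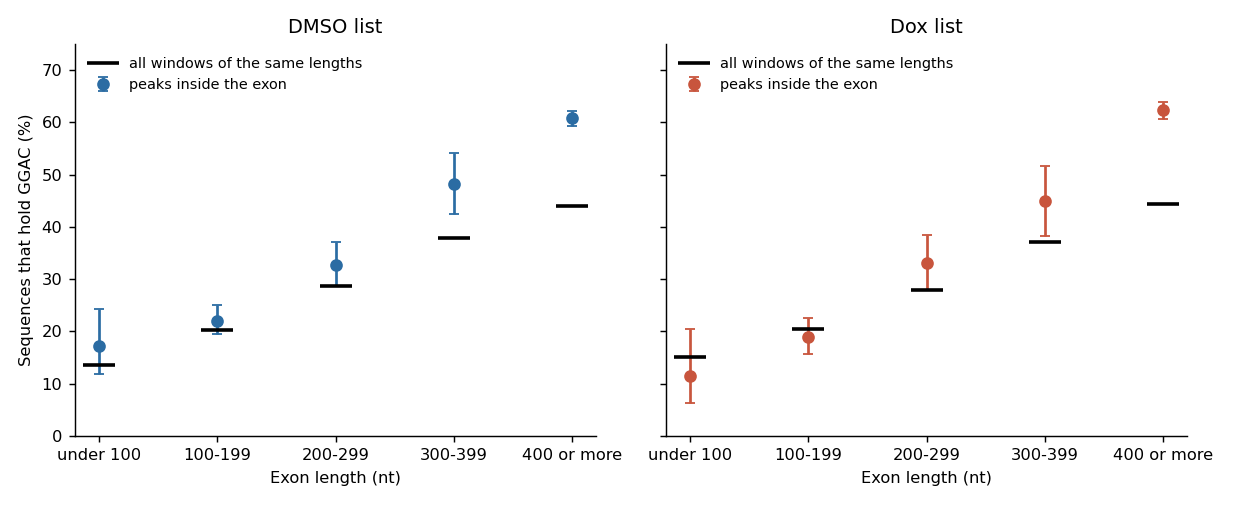
Share of sequences that hold GGAC (y axis, %) by exon length (x axis, nt) in the DMSO list (left) and the Dox list (right). Points are peaks that lie inside their exon, with Wilson 95% intervals, and black bars are all windows of the same lengths in exons under 400 nt, or of 400 nt or more for the last point, of the same genes. Points lie near the bars below 200 nt and above them at 300 nt or more, with 60.8% against 44.0% for long exons of the DMSO list.

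The DMSO list held more short-exon peaks than the Dox list, 2594 against 1551, a ratio of 1.67 (1.57 to 1.78). The ratio was 1.45 for all peaks, 1.21 (1.16 to 1.27) for long-exon peaks and 1.84 (1.74 to 1.94) for spliced coding peaks. It was 1.72, 1.73, 1.75 and 1.66 in the 4 exon classes below 300 nt, 1.40 (1.17 to 1.66) from 300 nt to under 400 nt and between 1.14 and 1.28 above. When the DMSO list was reduced to its 13001 best-scoring peaks, the size of the Dox list, it held 1551 short-exon peaks, and the ratio was 1.00 (0.932 to 1.07). At that size the ratio was 0.787 (0.749 to 0.826) for long-exon peaks and 1.54 (1.45 to 1.62) for spliced peaks.

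Of the DMSO short-exon peaks 1737, or 67.0% (65.1 to 68.7), shared no base with a Dox peak, where this was 43.0% for DMSO peaks of any position. Of the Dox short-exon peaks 165, or 10.6% (9.20 to 12.3), shared none with a DMSO peak, against 7.31% of all Dox peaks. The Dox-only share depended on the rule, with 51.2% when 50% of both peaks had to overlap (75.5% for DMSO), 25% at scores at or above the DMSO median and 23.9% for lists of equal size. For long-exon peaks the shares were 40.8% and 7.72%. The difference between short and long exons was 26.1 points (23.8 to 28.4) for DMSO and 2.92 points (1.22 to 4.75) for Dox peaks. It was also seen within the 403 genes that carried both kinds of peak in the DMSO list, where 72.9% of the short-exon and 36.7% of the long-exon peaks were DMSO-only, a difference of 36.2 points (31.7 to 40.5).

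Peak length moved with this difference. In the DMSO list, DMSO-only peaks were 88.7% of short-exon and 85.0% of long-exon peaks of 25 nt, a difference of 3.71 points (0.31 to 7.17). They were 77.9% and 78.9% at 26 to 74 nt (−0.99, −6.22 to 4.43), 53.6% and 57.1% at 75 to 150 nt (−3.47, −7.61 to 0.68), and 10.2% and 10.9% above 150 nt (−0.64, −4.55 to 4.86). Within a length class the shares thus differed by less than 4 points. In the Dox list short-exon peaks were the lower at 75 to 150 nt, with 3.04% against 6% Dox-only (−2.96, −4.94 to −0.80), and the intervals of the other classes included 0. With the scores of the DMSO list cut into 3 classes of equal size, the difference was 14.1 points (10.95 to 17.1) in the lowest class, 42.5 (38.3 to 46.5) in the middle and 27.3 (23.3 to 31.1) in the highest.

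**Figure D4:**
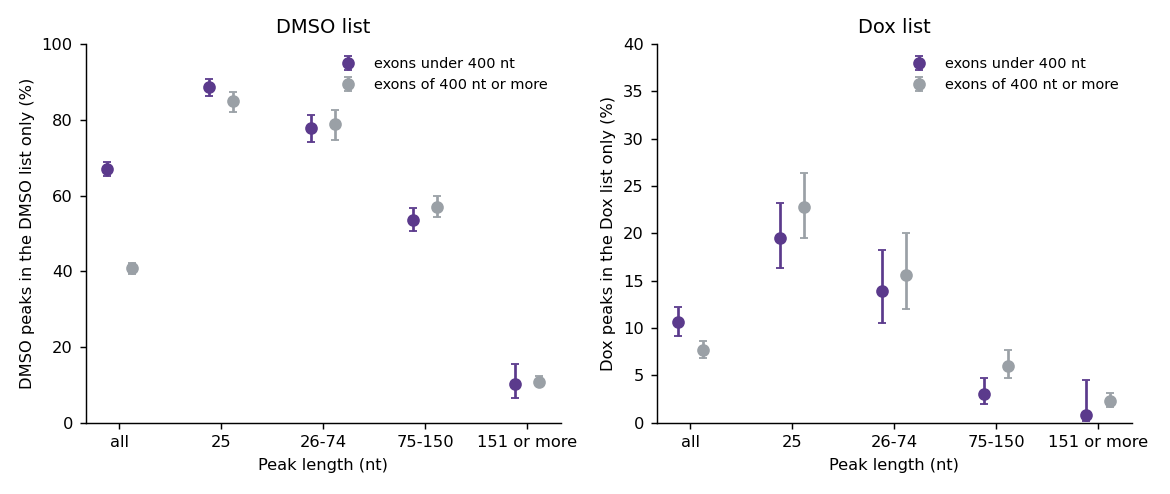
Share of the peaks of a list that shared no base with the other list (y axis, %, on different scales for the DMSO list at left and the Dox list at right) by peak length (x axis, nt), for peaks in exons under 400 nt and in exons of 400 nt or more. Bars are Wilson 95% intervals. Over all lengths the DMSO shares are 67.0% and 40.8%, and within each length class they lie within 4 points of each other.

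Peaks inside the exon were DMSO-only more often than those that extended past it, 76.2% (74.1 to 78.1) against 47.8% (44.5 to 51.2), and Dox-only in 13.5% against 4.499% of cases. At 75 to 150 nt the DMSO shares were 64.0% (60.1 to 67.8) and 39.5% (35.1 to 44.1). The Dox shares at that length were 2.70% (1.43 to 5.06) and 3.47% (1.84 to 6.47), each resting on 9 Dox-only peaks, and showed no such difference. In shorter Dox peaks the difference was seen. The Dox shares were 21.3% (17.8 to 25.3) and 9.21% (4.53 to 17.8) at 25 nt. At 50 nt they were 18.4% (13.7 to 24.2) and 5.56% (2.57 to 11.6). Of the 114 DMSO peaks that covered a whole exon only 24 were DMSO-only, and their median score was 19.0. The Dox list held 61 such peaks, 3 of them Dox-only, with a median score of 20.5.

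The overlapping peaks were not always of the same kind. Of the DMSO short-exon peaks 756 overlapped a Dox short-exon peak of the same exon and 67 (2.58%) a Dox peak that spanned a junction. Of the Dox short-exon peaks 770 had a DMSO counterpart in the same exon and 578 (37.3%) lay on a DMSO peak that spanned a junction. Those 578 had a median length of 50 nt, and their DMSO counterparts a median of 200 nt in 2 blocks. The DMSO peak was the longer in 571 of the 578. Where a single DMSO and a single Dox peak overlapped in an exon, in 723 pairs, both had the same coordinates in 225, the DMSO peak was longer in 412 and the Dox peak in 74, and the DMSO peak had the higher score in 510. Short-exon peaks lay in 2488 exons (DMSO) and 1480 exons (Dox), and 773 exons carried 1 in both, which is 31.1% of the former and 52.2% of the latter. More than 1 short-exon peak lay in 103 of the DMSO and 69 of the Dox exons, with at most 4 and 3.

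The peaks were spread over many genes, 1638 for DMSO and 1055 for Dox, with 789 in common. Most of these genes had a single short-exon peak, 1060 DMSO and 718 Dox genes. Of the 1737 DMSO-only peaks 1387 (79.9%) lay in genes that carried some Dox peak elsewhere, and of the 165 Dox-only peaks 149 (90.3%) lay in genes with a DMSO peak. The gene with the most was Sptan1, the alpha chain of non-erythroid spectrin, on chromosome 2, with 12 DMSO and 6 Dox peaks over 56 short coding exons. Of its 12 DMSO peaks 8 were DMSO-only, near the 67.0% of all DMSO short-exon peaks, and 1 of the 12 held GGAC. Dst, a linker of cytoskeletal filaments, had 10 and 5 peaks. The ubiquitin ligase Ubr4 had 10 and 4, and Dync1h1, the heavy chain of cytoplasmic dynein, had 9 and 5. In this order 9, 8 and 7 of their DMSO peaks were DMSO-only.

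Chd4, the ATPase of the NuRD chromatin remodelling complex, had 9 and 5 peaks over 37 short coding exons of chromosome 6. Of its 9 DMSO peaks 3 were DMSO-only, against 67.0% of all DMSO short-exon peaks, and these 3 had 25 nt each. Its best DMSO peak had 175 nt, ran past the 3′ edge of exon 25 and scored 22.1, and the Dox peak there had 75 nt and scored 13.4. The Dox peak of exon 2 had the same 225 nt as the DMSO peak and the higher score, 18.05 against 11.1.

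The 19 core pluripotency genes had 64 peaks in each list, and 5 in each were short-exon peaks, which is 7.81% against 14.5% (DMSO) and 12.5% (Dox) of the peaks of all genes. Per 100 kb of short-exon coding sequence these were 62.2 and 69.0 peaks, against 34.1 and 25.8 for all genes. Each of these 2 densities rests on 5 peaks, in 8.04 kb (DMSO) and 7.25 kb (Dox). No interval was computed for them, so a higher density than in all genes is not established. Tbx3, a T-box factor of naive ESCs, had a peak of 125 nt and score 18.5 in exon 4 in the DMSO list and one of 75 nt and score 10.6 in the Dox list. Esrrb, an orphan nuclear receptor, had peaks of 250 nt (score 18.2) and 275 nt (14.2) on exon 6, which has 270 nt and past whose edge both ran, with 2 and 3 GGAC. Dppa4, which acts with Dppa2 upstream of Dux, had a peak of 100 nt in exon 2 in both lists (scores 12.1 and 10.6) and a DMSO-only peak of 75 nt in exon 5, whose sequence also occurs at 1 other locus. The peaks of Dppa2 in exon 4 had 75 nt (10.8) and 25 nt (16.9) and also matched other loci. Nanog had a short-exon peak only in the Dox list, of 100 nt and score 10.7 in the 266 nt of exon 2, which overlapped a DMSO peak of another kind.

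No short-exon peak lay in the 18 genes of the 2-cell stage that were found in the annotation. They had 13 DMSO peaks in 4 genes and 43 Dox peaks in 15 genes, of which 7 and 25 were long-exon peaks. With 3 peaks taken as the upper limit of a count of 0, the share could be up to 23.1% of the DMSO and 6.98% of the Dox peaks of these genes. The coding sequence of their short exons was small, 0.64 kb in genes with a DMSO peak and 1.17 kb in genes with a Dox peak. So little sequence leaves room for few peaks, and a lower density than in all genes is not established.

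Of the m6A machinery, the nuclear reader Ythdc1 had 2 DMSO peaks, a DMSO-only one of 75 nt and score 17.0 in exon 11 and one of 100 nt in exon 12 (10.996), where the Dox peak had 50 nt (10.9). The writer complex subunit Virma had the same peak of 75 nt with a GGAC in exon 23 in both lists (scores 10.7 and 10.7), and Wtap the same peak of 25 nt in exon 6 (10.1 and 10.3), which matches 1 other locus. Zc3h13, another subunit, had a DMSO-only peak in exon 5 (11.4). Its Dox peak in exon 8 (11.6) overlapped a DMSO peak of another kind. The CCR4-NOT deadenylase had 5 DMSO and 6 Dox peaks, in its scaffold Cnot1, in Cnot3 and in the catalytic subunit Cnot7. The best of them was a Dox peak of 125 nt in exon 2 of Cnot1 (21.0), which overlapped a DMSO peak of another kind. The 2 DMSO peaks of Cnot1 (12.7 and 10.8) were DMSO-only, as were 4 of the 5 of this list and 67.0% of all DMSO short-exon peaks.

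The exon junction complex and nonsense-mediated decay list had 7 DMSO and 5 Dox peaks. Rbm8a, a core protein of that complex, had a peak of 100 nt over the 89 nt of exon 1 at the same place in both lists, with 2 GGAC and scores of 39.4 and 20.9. Its sequence matches 1 other locus. Casc3 (11.2), Smg1 (10.99) and Eif4a3 (10.2) had a DMSO-only peak each. Of the 7 DMSO peaks of this list 5 were DMSO-only, 71.4% (35.9 to 91.8) against 67.0% of all DMSO short-exon peaks. Upf3a, a decay factor, had a Dox peak of 125 nt in exon 5 (13.5), which overlapped a DMSO peak of another kind.

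Of the 15 gene lists, that of the ribosomal proteins had the highest density of short-exon peaks. The 83 cytosolic ribosomal protein genes had 42 DMSO and 33 Dox peaks, which is 208.7 and 179.9 per 100 kb of short-exon coding sequence in genes with a peak, against 34.1 and 25.8 for all genes. Only 38.1% (interval 25 to 53.2) of their DMSO peaks were DMSO-only. The sequence of 24 of the 42 and 17 of the 33 also occurs elsewhere in the genome, where ribosomal proteins have many pseudogenes, against 196 of all 2594 DMSO peaks (7.56%) and 141 of all 1551 Dox peaks (9.09%). Rps18 had 2 and 2 peaks, with scores of at most 65.3 and 16.2, and Rps20 had 2 and 2, at most 30.0 and 14.9. Translation factors had 38 and 27 peaks. Eef2, which moves the ribosome along mRNA, had 4 and 3, and its best DMSO peak, in exon 9, scored 30.7. Eef1a1 had 4 and 2, and Eif4g1, the scaffold of the cap-binding complex, 2 and 3. Among tRNA synthetases (16 and 12 peaks) Qars had 3 and 3, at most 42.4 and 21.1. RNA abundance was not analysed here, and its part in these densities was not tested.

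Splicing factors had 45 DMSO and 28 Dox peaks. Prpf8, the core of the spliceosome, had 5 DMSO peaks, all of them DMSO-only, of 25 to 75 nt and with scores of 10.7 to 13.2. Hnrnpa2b1 had 3 DMSO-only peaks and a Dox peak that overlapped a DMSO peak of another kind, and Srsf5 had 3 and 2 peaks. RNA helicases had 39 and 21 peaks, and all 4 DMSO peaks of Dhx9 were DMSO-only, while Ddx54 had 4 and 3 and Ddx23 had 2 and 3. Chromatin regulators had 68 and 38 peaks. Trim28, a corepressor of endogenous retroviruses, had 5 and 3, the best of 100 nt in exon 16 in both lists (47.3 and 22.4), and Chd1 had 7 and 4. The shares of DMSO-only peaks were 71.1% (56.6 to 82.3), 74.4% (58.9 to 85.4) and 64.7% (52.8 to 74.998) in these 3 lists, against 67.0% in all short-exon peaks.

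**Figure D5:**
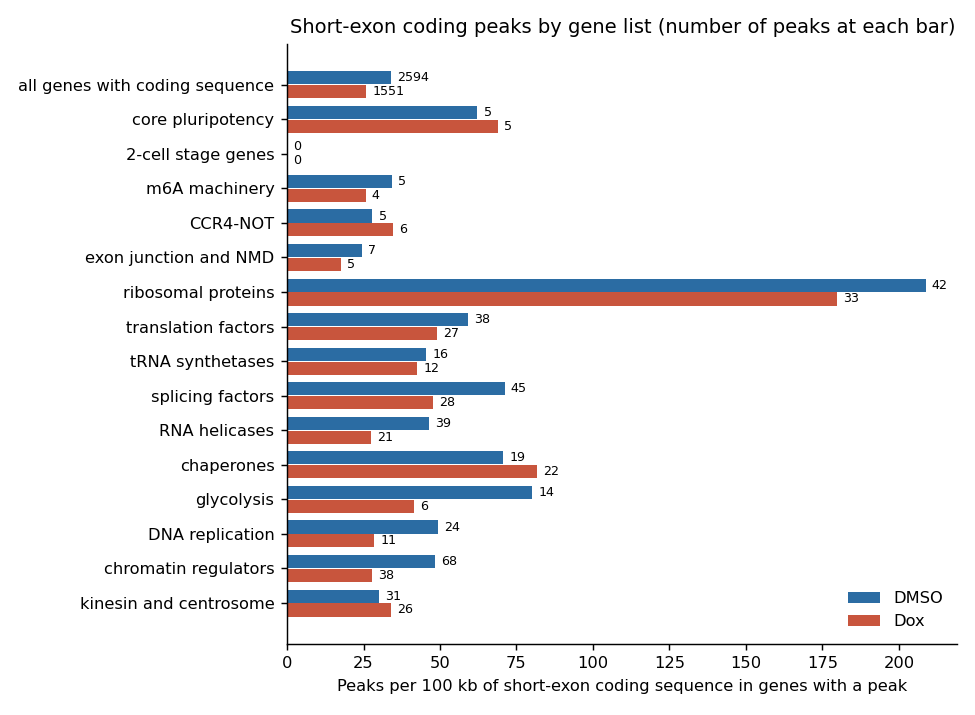
Short-exon coding peaks per 100 kb of short-exon coding sequence (x axis) in genes of each list that carry a peak, with the DMSO list in blue and the Dox list in red and the number of peaks printed at each bar. Replicates were combined in the deposited lists, and the values have no error bars. Ribosomal protein genes stand at 208.7 and 179.9 against 34.1 and 25.8 for all genes, and the genes of the 2-cell stage at 0.

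Values near the limits of the rule were as follows. Just inside the length limit, in exons of 350 nt to under 400 nt, 149 DMSO peaks were 46.3% DMSO-only and 57.05% held GGAC, and just outside it, up to under 450 nt, 139 peaks gave 51.1% and 46.8%. The Dox peaks there, 112 and 92, were 7.14% and 9.78% Dox-only, and 51.8% and 55.4% held GGAC. Between 200 and 250 nt from the stop codon 53.9% of 89 DMSO peaks were DMSO-only, and between 150 and 200 nt, outside the rule, 59.3% of 81. GGAC was held there by 39.3% inside and 29.6% outside the limit in the DMSO list, and by 34.2% of 73 and 43.4% of 53 Dox peaks.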

How the data were processed

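MeRIP-seq peaks were deposited as 1 BED list per treatment, with the value of each peak read as the authors' −log10 p-value (lowest 10.0). Per the labels and the study's methods, the authors filtered reads with fastp 0.19.4, aligned them to mm10 with HISAT2 2.2.1 and called peaks of IP over input with exomePeak2, whose version, settings and way of combining replicates are not given in the sources used here. ChIPseeker stands in the submitters' processing notes.

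Peaks were placed by their middle base on GENCODE M21, 1 transcript per gene. At least 99.85% of the splice boundaries inside spliced peaks lay at annotated exon ends. Sharing meant 1 base or more on the same strand. GGAC was sought on the strand of the peak only, and its share was compared with all windows by complete enumeration. Near-identical loci (at least 98% identity over 90% of a peak) were searched with blastn 2.17.0. Shares have Wilson, differences Newcombe and densities exact Poisson or conditional binomial 95% intervals, which treat peaks as independent. Of 1200 simulated peaks of known class and overlap 1200 were placed and 1200 matched correctly. The simulated peaks had a single block inside an exon of a single gene. Peaks across an exon edge, spliced peaks and overlapping genes were therefore not tried. Python 3.11.15, numpy 2.4.6, scipy 1.17.1 and matplotlib 3.10.9 were used.

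Peaks and genes were named by rule: the 3 best-scoring short-exon peaks, list-only peaks and whole-exon peaks of each list, the 5 genes with most peaks, every gene with a short-exon peak in the pluripotency, 2-cell, m6A, CCR4-NOT and exon junction lists, and up to 3 genes with most peaks in each other list. Some items that this rule takes are not reported here. The peaks examined and the gene lists were chosen with earlier results of these data known. The lists hold 83 ribosomal protein genes and 71 translation factors by name pattern, which also takes kinases and methyltransferases of these factors, and 17 of 18 chaperones, 19 of 20 tRNA synthetases and 18 of 19 genes of the 2-cell stage were found.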

Additional observations from a re-analysis of the deposited data

How the results depend on the processing

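Of 107 alternative values 62 kept the direction and moved little, 44 moved and 1 turned. The difference in DMSO-only share between short- and long-exon peaks, 26.1 points as reported, was −3.47 points within peaks of 75 to 150 nt, 34.8 for peaks inside the exon, 14.6 at scores at or above the DMSO median and 31.0 for lists of equal size. The numbers of short-exon peaks were 1712 (DMSO) and 986 (Dox) with a limit of 200 nt, 1685 and 993 where no transcript had an exon of 400 nt or more at the middle base, 1183 and 620 with the score limit, and 1551 in the DMSO list cut to equal size. Their ratio became 1.91 with the score limit and 1.00 at equal size. The DMSO-only share was 69.6% at under 200 nt, 76.2% inside the exon, 72.4% when 50% of the peak had to be covered, 75.5% when 50% of both had to be, 73.4% without a longer exon, 70.6% with the score limit and 55.4% at equal size. The Dox-only share was 13.5% inside the exon, 12.3% and 51.2% under these overlap rules, 25% with the score limit and 23.9% at equal size. The GGAC share of DMSO peaks was 27.2% under 300 nt, 24.8% under 200 nt, 69.5% with DRACH, 9.10% with GGACT, 32.5% with the score limit and 32.4% at equal size, and that of Dox peaks 24.8%, 21.7%, 67.9%, 8.45% and 31.9% in the first 5 of these. The density ratio of short to long exons was for DMSO 0.329 under 200 nt, 0.218 inside the exon, 0.249 in genes with both kinds of exon, 0.599 with all coding peaks and 0.343 with the score limit, and for Dox 0.244 under 300 nt, 0.184 inside the exon, 0.197 in genes with both and 0.476 with all coding peaks. The cause was not tested. The 9 alternatives on longer exons and on all coding peaks were chosen after seeing the data.

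No paired analysis was possible because the replicates of a treatment are combined in 1 peak list, so no replicate was left out. Depth and the number of cells in either state were not analysed.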

Other observations

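Further gene lists were counted in the same way. The 17 chaperone genes had 19 DMSO and 22 Dox short-exon peaks, a ratio of 0.864 (0.472 to 1.58), where the ratio over all genes was 1.67. Hspa8, the constitutive Hsc70, had 4 and 3, and its peak of 275 nt over exon 8 scored 97.5 (DMSO) and 26.1 (Dox). Hsp90aa1 had 4 DMSO peaks, 3 of them DMSO-only, and 2 Dox peaks, and Hsp90ab1 had 2 and 2. Of the 19 DMSO chaperone peaks 9 were DMSO-only, 47.4% (27.3 to 68.3) against 67.0% of all DMSO short-exon peaks. Glycolytic enzymes had 14 and 6 peaks, a ratio of 2.33 (0.927 to 5.87), with 3 and 1 in Aldoa, 1 and 2 in Eno1 and 1 and 1 in Pfkp. Within lists of this size the intervals are wide, and only that of the chaperones lay below 1.67. With 15 lists, 1 such interval can arise by chance. Of the 22 Dox chaperone peaks 0 were Dox-only, against 10.6% of all Dox short-exon peaks.

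DNA replication genes had 24 DMSO and 11 Dox peaks, a ratio of 2.18 (1.08 to 4.39). Of the 24 DMSO peaks 17 were DMSO-only, 70.8% (50.8 to 85.1), near the 67.0% of all DMSO short-exon peaks. These included all 4 DMSO peaks of Top2a, the topoisomerase of chromosome segregation. The Dox peak of Top2a lay in another exon and overlapped a DMSO peak of another kind. Mcm3, a subunit of the replicative helicase, had a peak of 125 nt over the 104 nt of exon 14 at the same place in both lists, with scores of 125 and 37.3 and no GGAC. Mcm5 had 3 and 2 peaks. Kinesin and centrosome genes had 31 and 26 peaks, with 3 and 2 in Kif23, 3 and 1 in Kif5b and 2 and 2 in Kif18b. Aars had 1 and 2 peaks and Yars 3 and 1.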
